A study of Rattus norvegicus with 20 samples.

Results

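The constitutive proteasome subunits were taken from the gene table as all symbols of the families Psma, Psmb, Psmc, Psmd and Psme followed by a number, without the immunoproteasome subunits Psmb8, Psmb9 and Psmb10. The rule found 40 of the 19060 genes in the table, and no measured value was used in it. Of these, 38 were expressed in lung, and most moved little after an operation that causes abdominal sepsis. Psma6, Psmd11, Psme3 and Psmd14 were higher and Psme1 lower in CLP against Sham under each of the 27 alternative analyses. Most of these alternatives left out 1 of the 20 libraries. In other animals with vagus stimulation (CLP+VNS against Sham+VNS), Psma6, Psmd11 and Psme3 were again higher. Psmd14 and Psme1 did not pass the threshold there.

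The proteasome is the main protease of the cytosol and nucleus and degrades proteins that carry ubiquitin chains. Its core particle is a barrel of stacked rings, with outer rings of alpha subunits (Psma genes) that gate the entry and inner rings of beta subunits (Psmb genes), of which Psmb5, Psmb6 and Psmb7 hold the active sites. A regulatory cap of ATPases (Psmc genes) and non-ATPase subunits (Psmd genes) binds, unfolds and deubiquitinates the substrate, and the Psme genes encode alternative activators that open the core without ubiquitin. In lung and other tissues, interferon gamma induces Psmb8, Psmb9 and Psmb10, which take the places of Psmb5, Psmb6 and Psmb7 in newly built cores, and the transcription factor Nfe2l1 raises the subunit genes together when proteasome activity falls short.

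RNA was sequenced from lung tissue of 20 rats in 4 groups of 5. Sham rats had a laparotomy in which the cecum was handled and left intact. CLP rats had cecal ligation and puncture, which lets gut bacteria into the abdomen and served as the study's model of acute respiratory distress syndrome. Sham+VNS and CLP+VNS rats had the same operations and stimulation of the vagus nerve, on the right side at cervical level. For strain, sex, age, stimulation settings and time of sampling, no value was given in the sources used here. Estimated counts per library totalled 13729646 to 14453181. All 12 defining markers of lung epithelium, endothelium, stroma and macrophages were expressed, with sums of 19993 to 31032 CPM (counts scaled to library size) in Sham and 27079 to 31018 in CLP. These sums do not show the changes of single markers, which are given below with the other cell types. Sham replicate 1 and Sham+VNS replicate 2 stood apart by their adipocyte genes, which summed to as much as 712 and 212 CPM in those groups and to at most 14.9 CPM in CLP and CLP+VNS, where 1 of the 4 genes had 0 counts in CLP, so main counts are also given without these 2 libraries.

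Levels between subunits were compared in TPM, the authors' measure of transcript abundance scaled for transcript length and library total. All subunits together made up 0.486% ± 0.0161 (SD, n = 5) of the TPM in Sham and 0.471% ± 0.00806 in CLP, with ranges that overlapped. Alpha ring subunits ranged from 120.4 ± 6.21 TPM for Psma3 to 243 ± 12.5 for Psma6, and beta ring subunits from 117 ± 3.87 for Psmb2 to 328 ± 19.0 for Psmb1. Cap ATPases lay lower, between 79.7 ± 3.36 TPM (Psmc6) and 147 ± 4.96 TPM (Psmc3), and the other cap subunits between 47.3 ± 1.73 TPM (Psmd11) and 118 ± 6.05 TPM (Psmd4). The partners Psme1 and Psme2, which form a mixed ring on the end of the core, were furthest apart, with 403 ± 25.4 TPM for Psme1 and 29.3 ± 3.61 TPM for Psme2. Within Sham, Psme1 was thus the most abundant subunit per length and Psme2 the least abundant of the 38 that were expressed. The deposited counts of Psme2 and Psma3 were whole in 0 of the 20 libraries, and Psme1 and Psme2 have 2 and 3 pseudogenes in the reference gene table. How shared reads were assigned is not given, so these levels and the ranking are uncertain in that respect. The catalytic subunits Psmb5, Psmb6 and Psmb7 were at 156 ± 5.94, 166 ± 8.69 and 178 ± 12.6 TPM. Psmb6 lay above Psmb5 within each Sham library, though their ranges over the libraries overlapped (153.83 to 173.47 and 146.76 to 163.3).

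**Figure D1:**
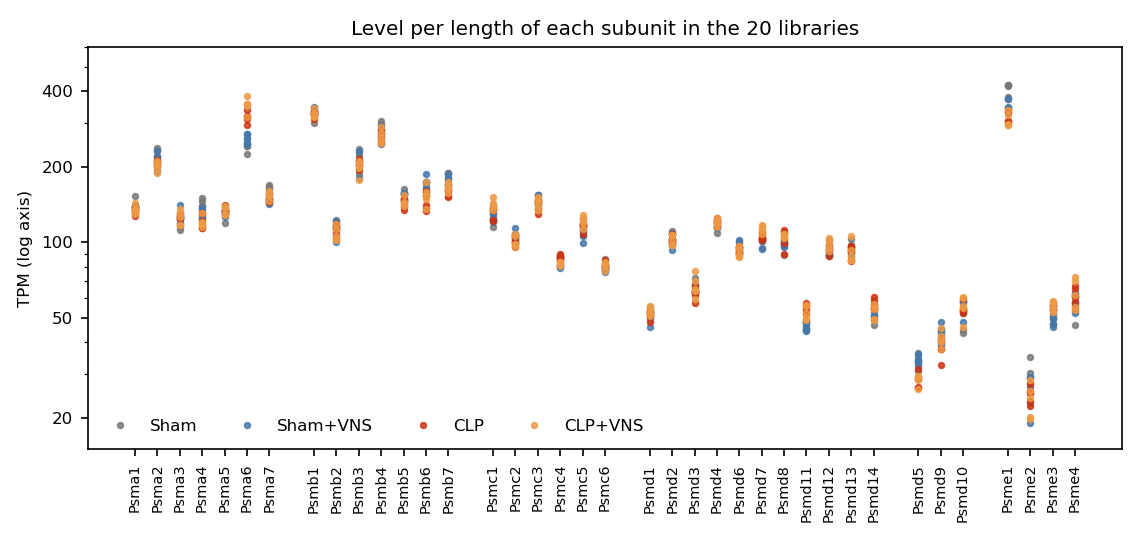
TPM (log axis) of the 38 expressed subunits in each of the 20 libraries, 1 point per library, coloured by group and ordered by subcomplex (alpha ring, beta ring, cap ATPases, other cap subunits, base assembly chaperones, activators). The Psma6 points of CLP and CLP+VNS lie above those of both sham groups, and Psme1 and Psme2 mark the top and bottom of the range.

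Psma8, the testis form of an alpha subunit, and Psmb11, the thymus form of a beta subunit, did not reach the minimum count for testing. Their summed counts over the 5 libraries of a group were 0 to 5 for Psma8 and 2 to 6 for Psmb11. A group total of 3 counts corresponds to 0.0431 CPM in Sham, so both were at or near the limit of detection.

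The expressed subunits varied little between animals of a group. Their median residual SD was 0.069 on the log2 CPM scale, against 0.16 over all 14794 tested genes and 0.11 over the 7770 genes with a mean level within the subunits' range. Psmc4, a cap ATPase, was the steadiest with an SD of 0.044. Psme2 and Psme4, which encodes a large nuclear activator, were the most variable with SDs of 0.19 and 0.16. Standard errors of the fold changes were accordingly small, with a median of 0.047 on the log2 scale for CLP against Sham, and changes as small as 0.10 were called.

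CLP against Sham asked which subunits change in the injured lung. Of the 38 subunits, 12 were higher and 3 lower, that is 39.5% called, where a gene was called when edgeR's quasi-likelihood test gave a Benjamini-Hochberg adjusted p below 0.05 over all tested genes. The background was 40.3% of all genes (19.8% higher and 20.5% lower), and the subunits' share lay near it. Called higher were Psma6, Psmd14, Psmd11, Psme3, Psmd8, Psmd7, Psmd12, Psmc1, Psmd4, Psma5, Psmc4 and Psmc6, and called lower were Psme1, Psmd5 and Psma4. The median log2 fold change was 0.057 for the subunits and -0.013 for all genes. Sizes were small: 2 of 38 subunits (5.26%) differed by 0.25 or more on the log2 scale, against 44.0% of all genes. Libraries of the 2 groups did not overlap for 10 subunits, 9 of them above (Psma3, Psma5, Psma6, Psmd4, Psmd7, Psmd11, Psmd12, Psmd14 and Psme3) and 1 below (Psme1), where 26.1% of all genes did not overlap.

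**Figure D2:**
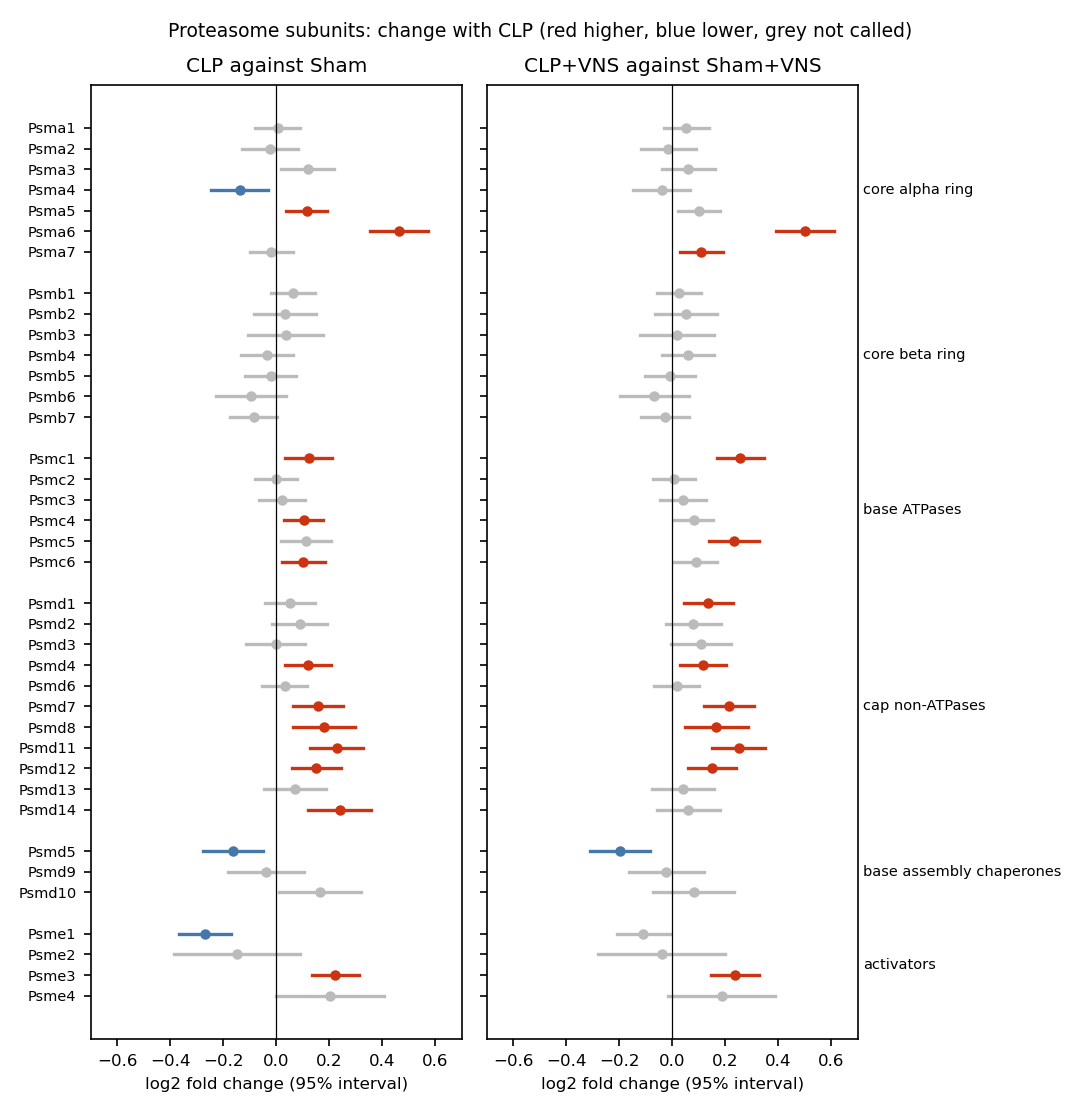
Log2 fold change of each subunit with its 95% interval, by subcomplex, for CLP against Sham (left) and CLP+VNS against Sham+VNS (right). Red marks subunits called higher, blue called lower and grey not called, and the beta ring is grey throughout while Psma6 lies furthest to the right in both panels (0.46 and 0.50).

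**Figure D3:**
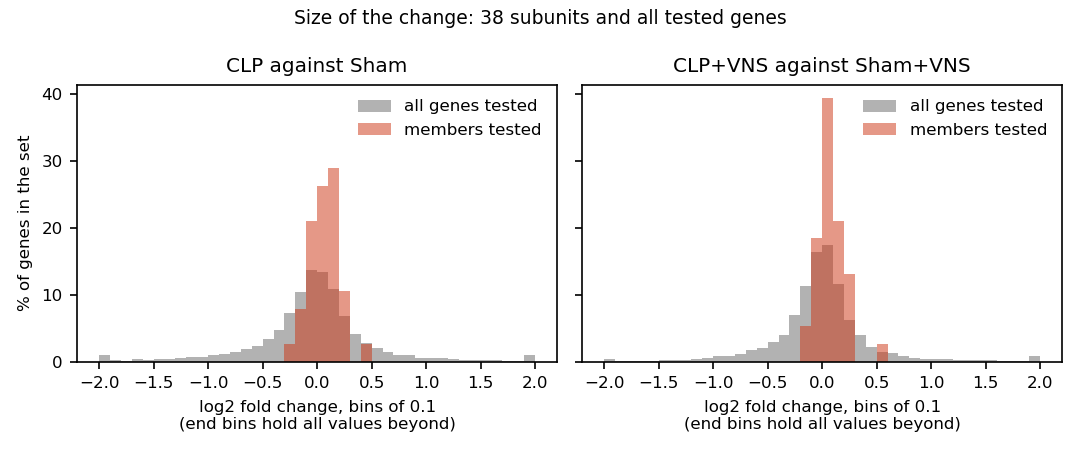
Share of genes in bins of 0.1 of the log2 fold change for all 14794 tested genes (grey) and the 38 subunits (red), in both comparisons of the operation. The subunits sit in the centre of the distribution, with 5.26% of them at or beyond 0.25 in either direction in each comparison.

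The count depended on how libraries were scaled. With total count alone in place of TMM, 4 subunits were called higher and 4 lower (median 0.0069), against 2347 and 3756 of all 14794 genes. The share of higher genes among all called genes went from 49.1% to 38.5% and the median of all genes to -0.064. Psma6, Psmd11, Psmd14 and Psme3 were called higher and Psme1 lower under each of the 27 alternatives run for this comparison. Several of the other calls lay near the threshold and were lost when 1 library was left out, at edgeR adjusted p of 0.0502 to 0.135. Some of those libraries were from CLP+VNS, which shares the fit but is not in this comparison. Psma5 lost its call without CLP replicate 4 or Sham replicate 3 (0.090 to 0.10 in log2 fold change), Psmd8 without CLP replicate 5 or Sham replicate 5 (0.14), and Psmc1 without CLP replicates 3 or 4 or Sham replicate 2 (0.084 to 0.11). Psmd4 lost it without CLP replicate 5 or Sham replicates 1 or 5 (0.087 to 0.12), Psmc4 without CLP replicate 5 or Sham replicates 1, 3 or 5 (0.084 to 0.10), and Psmd5 without CLP replicates 5 or 6 or Sham replicates 2 or 4 (-0.15 to -0.14). Psma4 lost its call without any of 8 libraries (CLP replicates 1, 3, 4 and 6, Sham replicates 1, 4 and 5, CLP+VNS replicate 5, -0.14 to -0.12) and Psmc6 without any of 9 (CLP replicates 1, 4, 5 and 6, Sham replicates 1, 3, 4 and 5, CLP+VNS replicate 1, 0.081 to 0.11). Without the 2 adipose-rich libraries, 9 subunits were called higher and 2 lower, against 2795 and 2874 of all 14816 genes tested.

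Promoter sequence is shown for 4 subunits that cover the patterns found: Psma6 and Psme3, which were higher, Psme1, which was lower, and the level catalytic subunit Psmb5. The 250 bases before each transcription start are given 5′ to 3′ on the gene's own strand, from RefSeq on assembly GRCr8, and capitals mark a motif match. The motifs searched on both strands were the antioxidant response element core TGACNNNGC, the type of site bound by Nfe2l1 and Nfe2l2 with small Maf proteins, and the CCAAT box, which reads ATTGG on the other strand.
Psma6 promoter (chr6:78514097-78514346, plus strand): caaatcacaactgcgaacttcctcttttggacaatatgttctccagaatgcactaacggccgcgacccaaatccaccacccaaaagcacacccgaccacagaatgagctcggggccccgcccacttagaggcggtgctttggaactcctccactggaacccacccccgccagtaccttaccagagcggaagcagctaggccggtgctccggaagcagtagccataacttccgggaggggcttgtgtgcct
Psme1 promoter (chr15:33038721-33038970, plus strand): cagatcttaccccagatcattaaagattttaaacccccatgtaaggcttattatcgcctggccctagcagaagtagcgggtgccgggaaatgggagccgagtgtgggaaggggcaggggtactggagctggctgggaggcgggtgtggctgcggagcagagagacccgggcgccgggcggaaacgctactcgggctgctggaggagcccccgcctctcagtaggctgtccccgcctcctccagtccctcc
Psmb5 promoter (chr15:32047380-32047629, minus strand): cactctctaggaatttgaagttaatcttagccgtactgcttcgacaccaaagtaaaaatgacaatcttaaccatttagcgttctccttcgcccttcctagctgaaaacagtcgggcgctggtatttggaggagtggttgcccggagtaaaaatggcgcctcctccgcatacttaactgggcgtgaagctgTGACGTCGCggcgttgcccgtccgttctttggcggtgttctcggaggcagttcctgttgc
Psme3 promoter (chr10:86757683-86757932, plus strand): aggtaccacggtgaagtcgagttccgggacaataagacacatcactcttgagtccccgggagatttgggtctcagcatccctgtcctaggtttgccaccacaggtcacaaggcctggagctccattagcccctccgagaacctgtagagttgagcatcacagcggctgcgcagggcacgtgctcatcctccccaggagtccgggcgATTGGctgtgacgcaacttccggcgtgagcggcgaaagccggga

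The Psmb5 window holds an antioxidant response element core that begins at base -60, counted from the start site, and the Psme3 window a CCAAT box at -44. The 250 bases shown for Psma6 and Psme1 hold neither set of letters. A window of 300 bases, 250 before and 50 after the start, was found in the RefSeq table for 35 of the 40 subunits. The antioxidant core was in 8 of 35 (22.9%), against 12.1% of 33469 windows of the same length, and the CCAAT box in 17 of 35 (48.6%) against 37.5%. The 33469 are all windows of that table and were not limited to the genes tested here. Holding the antioxidant core were Psma3, Psmb2, Psmb5, Psmb6, Psmd1, Psmd3, Psmd9 and Psme4. Of these, 0 were called in CLP against Sham, against 40.3% of all genes. Psmd1 was called higher in CLP+VNS against Sham+VNS (0.14 ± 0.045), where 13.9% of all genes were called higher. In Psmb2 the motifs share 1 base, with the CCAAT box at -72 and the antioxidant core at -68. A match of letters is a description of the window and not a bound site.

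Within the alpha ring, 2 of 7 tested subunits were higher and 1 was lower (42.9% called, near the 40.3% of all genes). The summed TPM of the ring was 1163 ± 45.0 in Sham and 1185 ± 9.93 in CLP (SD, n = 5), with ranges that overlapped. Psma6, an alpha subunit of the ring that caps the core, stood at 109, 114, 112, 110.2 and 99.8 CPM in Sham and at 157, 151, 146, 142 and 155 CPM in CLP. Each CLP library lay above each Sham library, and the log2 fold change was 0.46 ± 0.053 (SE), a 1.38-fold level (adjusted p = 1.78e-06). The other called alpha subunits moved by far less, with 0.11 ± 0.038 for Psma5 (adjusted p = 0.0211) and -0.14 ± 0.052 for Psma4 (adjusted p = 0.0387). Psma1, Psma2 and Psma7, at 0.0051, -0.024 and -0.019, were not called, and neither was Psma3 at 0.12 ± 0.048 (adjusted p = 0.0583). Psma6 has 5 pseudogenes in the reference gene table, and how reads shared with such copies were assigned is not given, so its level is uncertain in that respect.

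**Figure D4:**
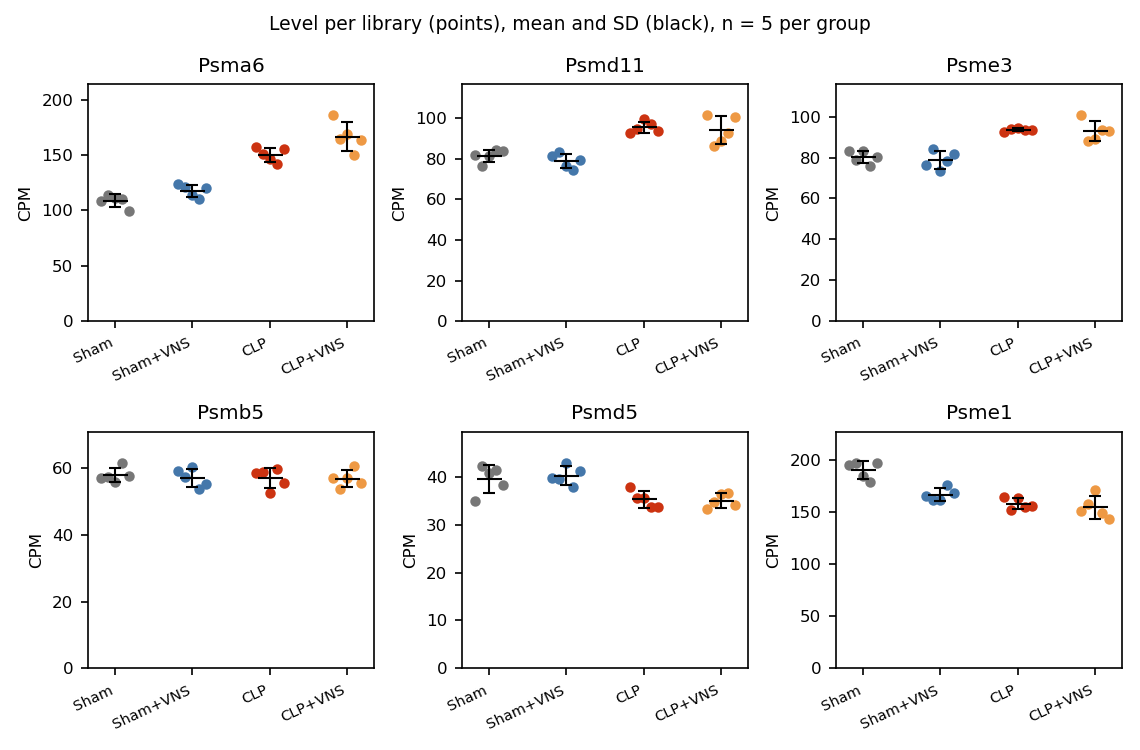
CPM of 6 subunits in each library (points, 5 per group), with the mean and SD in black and all axes from 0. Psma6, Psmd11 and Psme3 stand higher in CLP and CLP+VNS than in both sham groups, Psmb5 is level, and Psmd5 and Psme1 are lower in CLP than in Sham.

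No beta ring subunit was called in CLP against Sham (0 of 7, against 40.3% of all genes). None reached an unadjusted p below 0.05, against 48.2% of all genes. Psmb5, the chymotrypsin-like protease of the core, was at 57.1, 57.3, 56.0, 61.7 and 57.7 CPM in Sham and at 58.6, 58.9, 52.6, 59.6 and 55.6 CPM in CLP. The ranges overlapped and the log2 fold change was -0.021 ± 0.046, with a 95% interval of -0.12 to 0.074. Psmb6, the caspase-like protease, gave -0.096 ± 0.063 (interval -0.23 to 0.035), and Psmb7, the trypsin-like protease, -0.086 ± 0.043 (interval -0.18 to 0.0045). Psmb7 was called lower with total count alone as the scaling (-0.14, adjusted p = 0.0203) and when Sham replicate 3 was left out (-0.11, adjusted p = 0.0379). Over all 7 tested beta subunits the intervals ran from -0.23 to 0.18, and larger changes lie outside them. On the authors' TPM scale, which has no TMM scaling, the summed beta ring was 1447 ± 74.0 in Sham and 1351 ± 34.1 in CLP (SD, n = 5), with ranges that overlapped.

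Of the 17 cap subunits 9 were called higher and 0 lower, where 19.8% of all genes were called higher. That count depended on the scaling: with total count alone it was 2 of 17 (Psmd11 and Psmd14). The cap's share was then not above that of all genes (2347 of 14794 called higher). It was 4 of 17 with only the 2 groups in the fit (2687 of 14444 genes) and with a replicate block (2393 of 14794 genes). It was 5 of 17 without CLP replicate 5 (2621 of 14872 genes) or without Sham replicate 5 (2613 of 14870 genes). Without the 2 adipose-rich libraries it was 6 of 17 (2795 of 14816 genes). Among the 6 ATPases, which unfold substrates and thread them into the core, Psmc1 (0.12 ± 0.043, adjusted p = 0.0271), Psmc4 (0.10 ± 0.035) and Psmc6 (0.10 ± 0.038) were higher, and the median of the 6 was 0.10. Psmc2 and Psmc3 were at 0.00063 and 0.022 and were not called. Among the 11 non-ATPase subunits 6 were higher, with a median of 0.12. On the authors' TPM scale the summed ATPases were 663 ± 10.5 in Sham and 656 ± 20.3 in CLP (SD, n = 5). The summed non-ATPase subunits were 920 ± 31.1 and 940 ± 27.4, and both sums had ranges that overlapped.

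Psmd14, the metalloprotease that removes ubiquitin chains from substrates, was at 39.4, 44.4, 39.8, 45.9 and 41.0 CPM in Sham and 50.4, 47.4, 52.1, 48.7 and 49.97 CPM in CLP. The groups did not overlap, and the log2 fold change was 0.24 ± 0.057 (adjusted p = 0.00251). Psmd11, a lid subunit that ties the cap to the core, was at 81.7, 76.5, 81.6, 84.3 and 83.8 CPM in Sham and 92.6, 94.8, 99.6, 97.04 and 93.6 CPM in CLP. Here too each CLP library exceeded each Sham library, and the log2 fold change was 0.23 ± 0.048 (adjusted p = 8.51e-04). The lid subunits Psmd7, the inactive partner of Psmd14, Psmd8 and Psmd12 were higher by 0.16 ± 0.045, 0.18 ± 0.057 and 0.15 ± 0.044. The ubiquitin receptor Psmd4 was higher by 0.12 ± 0.041 (adjusted p = 0.0264). Psmd1 and Psmd2, the large scaffold subunits, gave 0.052 ± 0.045 and 0.089 ± 0.050 and were not called.

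The base assembly chaperones Psmd5, Psmd9 and Psmd10 help build the ATPase ring and leave the finished particle. Psmd5 was at 35.1, 42.3, 40.8, 41.4 and 38.4 CPM in Sham and 37.9, 35.6, 35.7, 33.7 and 33.8 CPM in CLP, and was called lower, with a log2 fold change of -0.16 ± 0.054 (adjusted p = 0.0206). Sham replicate 1 overlapped the CLP range, and the other 4 Sham libraries lay above it. Psmd9 and Psmd10 were at -0.039 ± 0.069 and 0.17 ± 0.074 and were not called.

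The activators moved in different directions. Psme1, the interferon-induced subunit of the cytosolic activator ring, was at 195, 197, 184, 179 and 197 CPM in Sham and 165, 152, 163, 155 and 156 CPM in CLP. Each CLP library lay below each Sham library, with a log2 fold change of -0.27 ± 0.047 (adjusted p = 1.60e-04). Its partner Psme2 gave -0.15 ± 0.11 and was not called, with an interval of -0.39 to 0.089 that includes the change of Psme1. Psme3, which forms the nuclear activator ring, was at 83.0, 78.6, 83.2, 76.1 and 80.3 CPM in Sham and 92.5, 94.0, 94.5, 93.6 and 93.6 CPM in CLP. It was higher by 0.22 ± 0.043 (adjusted p = 3.99e-04), with no overlap between the groups. Psme4 gave 0.20 ± 0.097 and was not called (adjusted p = 0.103). Psme1, Psme2 and Psme3 have 2, 3 and 4 pseudogenes in the reference table, with the same uncertainty as for Psma6. On the authors' TPM scale, which has no TMM scaling, the 4 activators together were at 539.8 ± 29.4 in Sham and 455 ± 18.8 in CLP (SD, n = 5). The highest CLP library (479) lay below the lowest Sham library (506). Psme1 made up most of this sum, with means of 403 TPM in Sham and 314 in CLP. Psme2 also had a lower mean in CLP (29.3 and 24.7), while Psme3 (50.7 and 55.6) and Psme4 (56.8 and 61.0) had higher ones.

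Ratios within a library do not depend on how libraries are scaled, and they are given as descriptions with no test. The TPM of Psma6 over the median of the other 6 tested alpha subunits was, across Sham, Sham+VNS, CLP and CLP+VNS in that order, 1.73 ± 0.0727, 1.92 ± 0.0749, 2.36 ± 0.140 and 2.61 ± 0.251 (SD, n = 5). The CLP and CLP+VNS libraries, at 2.19 to 2.54 and 2.25 to 2.95, all lay above the highest sham library of 2.02. The summed cap subunits over the summed core subunits came to 0.607 ± 0.0144 in Sham and 0.629 ± 0.0125 in CLP, and the ranges overlapped. Psmb8 over Psmb5, the inducible subunit over the one it replaces, was, in the same order of groups, 0.754 ± 0.146, 0.602 ± 0.0643, 0.495 ± 0.0845 and 0.565 ± 0.169. Psmb9 over Psmb6 was 0.658 ± 0.0703, 0.576 ± 0.0693, 0.512 ± 0.0480 and 0.554 ± 0.167, and Psmb10 over Psmb7 was 0.5004 ± 0.0754, 0.438 ± 0.0310, 0.446 ± 0.0277 and 0.438 ± 0.0429. Between the stimulated groups these 3 ratios differed by less than their SD.

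**Figure D5:**
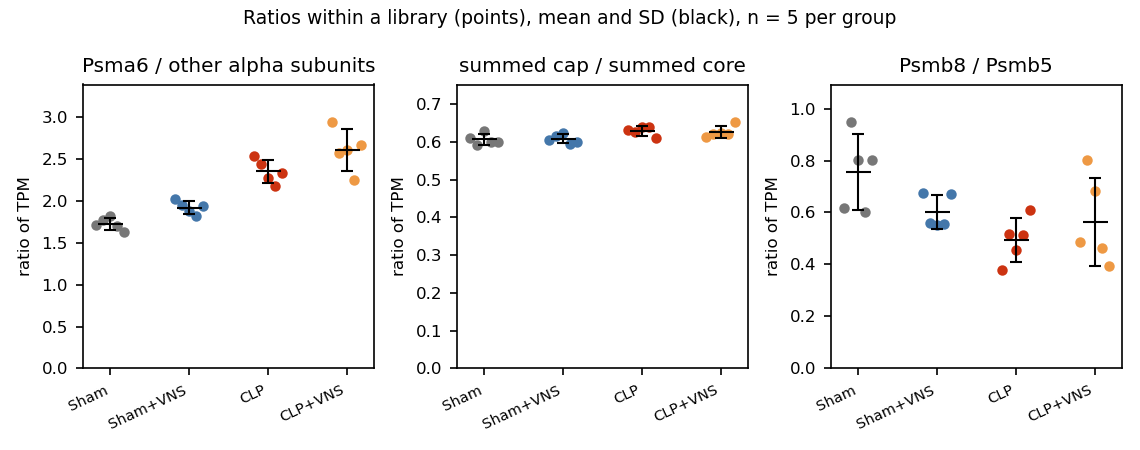
Ratios of TPM within each library (points, 5 per group, mean and SD in black): Psma6 over the median of the other alpha subunits, summed cap over summed core subunits, and Psmb8 over Psmb5. The first ratio separates CLP and CLP+VNS (2.19 to 2.95) from both sham groups (1.63 to 2.02), and the other panels overlap between groups.

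Under vagus stimulation the operation was compared in other animals, CLP+VNS against Sham+VNS. Of the 38 subunits 11 were higher and 1 lower (31.6% called), against 27.3% of all genes (13.9% higher and 13.4% lower), and the median was 0.061 against -0.0054 over all genes. Called higher were Psma6, Psmc1, Psmd11, Psme3, Psmc5, Psmd7, Psmd8, Psmd12, Psmd1, Psmd4 and Psma7, and called lower was Psmd5. These animals are separate from those of the first comparison, and 8 subunits were called higher in both (66.7% of the 12 and 72.7% of the 11): Psma6, Psmc1, Psmd4, Psmd7, Psmd8, Psmd11, Psmd12 and Psme3. Over all genes, those called higher in both were 58.6% of the first set and 83.3% of the second. Psmd5 was called lower in both. Libraries did not overlap for 9 subunits, 8 above and 1 below, against 18.9% of all genes.

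Psma6 was at 123, 121, 114, 110.3 and 119.8 CPM in Sham+VNS and 186, 165, 169, 150.0 and 163 CPM in CLP+VNS. It had the largest log2 fold change of the subunits here too, 0.50 ± 0.053 (adjusted p = 1.47e-06), and the groups did not overlap. Psmd11 and Psme3 were higher by 0.25 ± 0.048 and 0.24 ± 0.043 (adjusted p = 6.11e-04 and 3.75e-04). The cap ATPase Psmc1 was at 106, 109.7, 103, 105 and 107 CPM in Sham+VNS and 124, 125, 126, 126 and 131 CPM in CLP+VNS, again with no overlap, and its log2 fold change was 0.26 ± 0.043 (adjusted p = 1.76e-04). Another ATPase, Psmc5, was higher by 0.23 ± 0.045 (adjusted p = 6.76e-04), and the lid subunits Psmd7, Psmd8 and Psmd12 by 0.21 ± 0.045, 0.17 ± 0.057 and 0.15 ± 0.044. Psmd4 was higher by 0.12 ± 0.041 (adjusted p = 0.0412).

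Psmd5 was at 39.8, 39.5, 43.0, 37.8 and 41.2 CPM in Sham+VNS and 33.3, 34.8, 36.5, 36.7 and 34.1 CPM in CLP+VNS, a log2 fold change of -0.20 ± 0.054 (adjusted p = 0.00929) with no overlap. Psme1 gave -0.11 ± 0.047 and was not called (adjusted p = 0.0941), though it was called lower with total count alone (-0.14, adjusted p = 0.0269) and without CLP+VNS replicate 5 (-0.15, adjusted p = 0.0170). Psmd14 gave 0.061 ± 0.057 (adjusted p = 0.474), and Psme2 and Psme4 gave -0.040 ± 0.11 and 0.19 ± 0.097, none of them called. The beta ring again had 0 of 7 called, against 27.3% of all genes. Psmb5 gave -0.0086 ± 0.046, Psmb6 -0.068 ± 0.063 and Psmb7 -0.029 ± 0.043, and the intervals of the 7 lay within -0.20 and 0.17.

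Psma6, Psmc1, Psmc5, Psmd7, Psmd11 and Psme3 were called higher under each of the 27 alternatives of this comparison. With total count alone 6 subunits were called higher and 2 lower, against 1698 and 2401 of 14794 genes. Without the 2 adipose-rich libraries it was 6 higher and 1 lower, against 2024 and 2178 of 14816 genes. Without Sham+VNS replicate 2 or CLP+VNS replicate 1 the count called higher was 7, against 2021 of 14857 and 1771 of 14872 genes. Without CLP+VNS replicate 8 it was 6, against 1886 of 14868 genes. Psmd12 lost its call without CLP+VNS replicate 8 (0.12), and Psmd1 without CLP+VNS replicates 1, 5 or 8 or Sham+VNS replicates 2 or 3 (0.10 to 0.14). Psmd8 lost it without any of 8 libraries (CLP+VNS replicates 1, 5, 8 and 11 and Sham+VNS replicates 1, 2, 3 and 4, 0.15 to 0.17). Psma7 and Psmd4 lost theirs without any of 12 and 13 libraries, drawn from all 4 groups (0.088 to 0.11 and 0.097 to 0.12).

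Stimulation itself was compared within each operation, and no subunit was called. In CLP+VNS against CLP 0 of 38 subunits were called, against 0.027% of all genes, with 3 (7.89%) at an unadjusted p below 0.05 against 13.0% of all genes. DESeq2 called 0 subunits there and 144 genes in all (0.973%), and without CLP+VNS replicate 1 edgeR called 128 genes higher and 149 lower but 0 subunits. In Sham+VNS against Sham 0 were called, against 0% of all genes, with 4 (10.5%) at an unadjusted p below 0.05 against 8.01% of all genes. DESeq2 called 0 subunits and 6 genes in all (0.0406%). The intervals over all subunits ran from -0.33 to 0.26 in the first and from -0.43 to 0.28 in the second, and the medians were -0.0033 and -0.015, against 0.0041 and -0.0063 over all genes.

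The subunits that moved most with the operation had these values with stimulation. Psma6 gave 0.15 ± 0.052 in CLP+VNS against CLP (adjusted p = 0.237) and 0.11 ± 0.053 in Sham+VNS against Sham (adjusted p = 0.623). Psme1 was at 165, 161, 161, 176 and 169 CPM in Sham+VNS, each library below each Sham library, and was the only subunit of the 38 whose libraries did not overlap, against 0.798% of all genes. Its log2 fold change was -0.19 ± 0.047, with an unadjusted p of 5.80e-04 that did not pass the adjustment over all genes (adjusted p = 0.486). In CLP+VNS against CLP Psme1 gave -0.034 ± 0.047, and 0 subunits had groups that did not overlap, against 2.26% of all genes.

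Among the other subunits with a named role, Psmb5, Psmb6 and Psmb7 gave -0.0066 ± 0.046, 0.076 ± 0.063 and 0.057 ± 0.043 in CLP+VNS against CLP, and -0.019 ± 0.046, 0.048 ± 0.062 and -0.00027 ± 0.043 in Sham+VNS against Sham. Psmd14 and Psmd4 gave -0.12 ± 0.057 and -0.014 ± 0.041 in the first, and 0.060 ± 0.057 and -0.011 ± 0.041 in the second. For the activators Psme2, Psme3 and Psme4 the values were -0.086 ± 0.11, -0.012 ± 0.043 and 0.019 ± 0.097 in the first, and -0.20 ± 0.11, -0.026 ± 0.043 and 0.036 ± 0.097 in the second. None was called.

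Whether the operation acted differently with and without stimulation was tested as an interaction, the change in CLP+VNS against Sham+VNS minus that in CLP against Sham. No subunit was called by edgeR (0 of 38, against 0% of all genes) or by DESeq2, which called 6 genes in all (0.0406%). An unadjusted p below 0.05 was found for 4 subunits (10.5%) and for 8.23% of all genes, so the subunits' share lay near the background. Psma6 gave 0.038 ± 0.074 (interval -0.12 to 0.19). The 4 were Psme1 (0.16 ± 0.067, adjusted p = 0.557), Psmd14 (-0.18 ± 0.081, adjusted p = 0.583), Psmc1 (0.13 ± 0.060) and Psma7 (0.13 ± 0.055). Psmb5, Psmb6 and Psmb7 gave 0.012 ± 0.065, 0.028 ± 0.089 and 0.057 ± 0.061, Psmd4 gave -0.0028 ± 0.058, and Psme2, Psme3 and Psme4 gave 0.11 ± 0.16, 0.014 ± 0.061 and -0.017 ± 0.14. The calls that differ between the 2 comparisons of the operation, such as Psmd14 and Psme1, are therefore not shown to differ between them.

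Genes that work with these subunits were followed in lists chosen by function. The immunoproteasome subunits were called lower in CLP against Sham, 3 of 3, where 20.5% of all genes were called lower. The log2 fold changes were -0.63 ± 0.17 for Psmb8, -0.47 ± 0.13 for Psmb9 and -0.26 ± 0.097 for Psmb10 (adjusted p = 0.0402). Psmb10 lost its call with only the 2 groups in the fit (-0.26, edgeR adjusted p = 0.0768) and without any of 8 libraries (CLP replicates 1, 3, 4, 5 and 6 and Sham replicates 2, 4 and 5, -0.27 to -0.20, adjusted p up to 0.122). Under stimulation 0 of 3 were called, against 27.3% of all genes, at -0.11 ± 0.17, -0.15 ± 0.13 and -0.033 ± 0.097. The interactions of 0.52 ± 0.23, 0.32 ± 0.18 and 0.22 ± 0.14 were not called either. With stimulation in CLP animals they gave 0.18 ± 0.17, 0.18 ± 0.13 and 0.033 ± 0.097, and in sham animals -0.34 ± 0.16, -0.15 ± 0.12 and -0.19 ± 0.096. Of the 12 interferon gamma responsive genes listed, 3 were lower and 0 higher (25%, against 40.3% of all genes), and 5 of the 12 estimates were above 0. The 3 were the guanylate-binding protein Gbp5 (-0.97 ± 0.15), the class II transactivator Ciita (-0.29 ± 0.10) and the peptide-loading factor Tapbp (-0.25 ± 0.065), while the peptide transporter genes Tap1 and Tap2 gave 0.17 ± 0.13 and 0.24 ± 0.12 and were not called. Under stimulation 2 of 12 were lower (16.7%, against 27.3% of all genes), Gbp5 (-0.53 ± 0.15) and Ciita (-0.58 ± 0.10).

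Of 7 regulators of subunit transcription 6 were higher in CLP against Sham and the same number under stimulation (85.7% in each), with a median of 0.47 and 0.43. Over all genes 19.8% and 13.9% were called higher. Nfe2l1, the factor that drives subunit genes when the proteasome is inhibited and whose type of site is marked in the Psmb5 promoter above, was higher by 0.43 ± 0.054 (adjusted p = 4.94e-06) and by 0.43 ± 0.054 under stimulation. Nfe2l2, the oxidative stress factor, was higher by 0.39 ± 0.078 and 0.29 ± 0.078, and their small Maf partners Maff by 1.39 ± 0.22 and 1.12 ± 0.22 and Mafg by 0.62 ± 0.060 and 0.55 ± 0.060. With stimulation in CLP animals Nfe2l1 and Nfe2l2 gave 0.040 ± 0.054 and -0.12 ± 0.078, in sham animals 0.043 ± 0.054 and -0.015 ± 0.078, and the interactions were -0.0034 ± 0.076 and -0.11 ± 0.11. None of those was called.

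Among 14 further cap components and shuttle receptors 7 were higher and 1 lower in CLP against Sham (57.1% called, against 40.3% of all genes). Under stimulation 5 were higher (Adrm1, Ubqln4, Uchl5, Zfand5 and Zfand2a) and 0 lower (35.7% called, against 27.3% of all genes). The 1 that was lower in CLP was the shuttle receptor Ubqln2 (-0.18 ± 0.046). Usp14, a deubiquitinase that docks on the cap, was higher by 0.22 ± 0.052 (adjusted p = 0.00260), and gave 0.092 ± 0.052 under stimulation, -0.097 ± 0.052 and 0.028 ± 0.052 with stimulation in CLP and sham animals, and -0.13 ± 0.074 as interaction, none of these called. Of 7 listed core assembly factors and regulators found in the table, 1 was higher (Akirin2, 0.15 ± 0.050) and 3 were lower in CLP against Sham. That is 57.1% called, against 40.3% of all genes. The 3 were the core assembly chaperones Psmg2 (-0.34 ± 0.089) and Psmg3 (-0.28 ± 0.085) and the proteasome inhibitor Psmf1 (-0.20 ± 0.048). Under stimulation 0 of the 7 were called, against 27.3% of all genes. The maturation factor Pomp was not called in any comparison, at -0.031 ± 0.052 and 0.064 ± 0.052 with the operation, -0.041 ± 0.052 and -0.14 ± 0.052 with stimulation in CLP and sham animals, and 0.095 ± 0.074 as interaction. Of 7 genes for Vcp, the ATPase that pulls ubiquitinated proteins out of complexes, and its cofactors, 5 were higher in each comparison of the operation (71.4%). Over all genes 19.8% were called higher in CLP against Sham and 13.9% under stimulation. The genes were Vcp, Nploc4, Faf1, Ubxn1 and Ubxn4 in CLP against Sham, and Vcp, Ufd1, Nploc4, Nsfl1c and Ubxn4 under stimulation.

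Transcripts of a gene were compared by the share of the gene's counts in its leading transcript, for 17 subunits with 2 or more transcripts. In the 34 exact permutation tests of the operation, 2-sided with 5 against 5 libraries, 4 had an unadjusted p below 0.05 and 0 passed the adjustment (lowest adjusted p = 0.270, and 0.00794 is the smallest unadjusted p these group sizes allow). A single test at that smallest p reaches an adjusted p of 0.270 over 34 tests, so at these group sizes the adjustment could hardly be passed and the count of 0 carries little information. Psmd11 had the widest shift, with its leading transcript at 78.1% ± 6.88 (SD, n = 5) of counts in Sham and 67.0% ± 3.56 in CLP (exact permutation p = 0.0159, adjusted p = 0.270). Under stimulation the same share was 74.2% ± 5.73 in Sham+VNS and 73.1% ± 6.91 in CLP+VNS. Psma6 came almost wholly from 1 transcript in each group, with means of 99.9% or more.

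These are whole-tissue libraries, in which fewer cells of a type and less RNA per cell cannot be told apart. Marker genes of lung and other cell types moved with the operation. Over all genes 19.8% were called higher and 20.5% lower in CLP against Sham, and 13.9% and 13.4% under stimulation. Of the 12 lung markers 2 were higher and 5 lower in CLP against Sham, and 2 higher and 4 lower under stimulation. Aqp5 of alveolar type 1 cells averaged 397 CPM in Sham and 114 in CLP, and Sftpb of alveolar type 2 cells 4282 and 6932. Neutrophil genes were higher in CLP, 6 of 6, and 4 of 6 under stimulation. Across Sham, Sham+VNS, CLP and CLP+VNS, in that order, their sums were 339 to 847, 302 to 655, 2838 to 4589 and 1603 to 4347 CPM. T cell genes were lower, 5 of 5 in both comparisons, with sums of 59.5 to 80.7, 49.0 to 73.4, 28.9 to 32.8 and 27.1 to 48.2 CPM in the same order. B cell genes were lower for 3 of 4 in both. Proliferation genes were higher for 4 of 4 in CLP against Sham and for 1 of 4 under stimulation, with sums of 24.6 to 43.4, 29.4 to 71.9, 51.5 to 92.1 and 41.0 to 56.8 CPM. Heart muscle genes were lower for 4 of 4 tested in CLP against Sham and 0 of 4 under stimulation, with a Sham range of 9.58 to 136 CPM. The part of these cell types in the subunit changes was not tested.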

How the data were processed

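Libraries were poly(A)-selected and strand-specific, per the labels' protocols. The authors deposited estimated counts (read counts that need not be whole) and TPM values per gene and per transcript, per the file headers. Of the deposited gene counts 91.5% were whole, and 3 subunits (Psmb6, Psma3 and Psme2) had decimals, so counts were rounded here. The submitters' processing notes name mRatBN7.2, with the aligner, counter and treatment of shared reads not given in the sources used here. A further 80 per-sample columns were not used.

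Genes were filtered with filterByExpr (minimum count 10), scaled by TMM and fitted over all 20 libraries with edgeR 4.0.16 (glmQLFit, robust, and glmQLFTest) in R 4.3.3, which left 14794 genes and 16 residual degrees of freedom. SE is the log2 fold change over the square root of F, and intervals are 95%. CPM are TMM-scaled here. TPM values were the authors' and were only described. Alternatives were DESeq2 1.42.0, its size factors, total-count scaling, no filter, 2-group fits, a replicate block, each library left out and, chosen after seeing the data, both adipose-rich libraries left out.

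Named in each comparison were Psmb5, Psmb6, Psmb7, Psmd14, Psmd4, Psme1, Psme2, Psme3 and Psme4, up to 8 called subunits with the largest and 8 with the smallest log2 fold change, subunits not reaching the filter, and Psmb8, Psmb9, Psmb10, Nfe2l1, Nfe2l2, Pomp, Usp14 and up to 4 called pathway genes of largest change. Other named genes complete a count and were named after their values were seen. The members and lists were chosen with earlier results of these data known. The result of 1 pathway list is not reported here.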

Additional observations from a re-analysis of the deposited data

Results flagged for a closer look

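In 6 of 152 sets of 5 libraries (38 subunits in 4 groups), a single library lay far from the other 4 by Dixon's criterion, which chance meets in about 1 in 20 sets. Psme4 was at 165 CPM in Sham replicate 5, with the other Sham libraries at 213 to 218, and Psmc1 at 96.6 CPM in Sham replicate 2, with the others at 110.3 to 112. Psma3 was at 118 CPM in Sham+VNS replicate 2, one of the adipose-rich libraries, with the others at 104.0 to 104.9. Psma7 was at 69.3 CPM in CLP replicate 3 (others 64.1 to 65.3) and Psmd4 at 96.7 CPM in CLP replicate 5 (others 89.2 to 90.9). Psma1 was at 90.3 CPM in CLP+VNS replicate 8 (others 83.0 to 84.2).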

How the results depend on the processing

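In CLP against Sham, 12 subunits were called higher and 3 lower. With total count alone the counts were 4 and 4, against 2347 and 3756 of all 14794 genes. With only the 2 groups in the fit they were 7 and 1, against 2687 and 2690 of 14444 genes. In both of these settings the share called was smaller for the subunits than for all genes. With DESeq2 the counts were 14 and 3, against 3083 and 3038 of 14794 genes. When 1 library was left out they were 8 to 14 and 1 to 4, with 1 called lower without Sham replicate 4 or CLP replicate 6. The median log2 fold change went from 0.057 to 0.0069 with total count alone. In CLP+VNS against Sham+VNS (11 higher, 1 lower) the counts were 6 and 2 with total count alone, against 1698 and 2401 of 14794 genes. They were 6 and 1 without both adipose-rich libraries, against 2024 and 2178 of 14816 genes, and 6 to 12 and 1 to 2 when 1 library was left out. In the stimulation comparisons and the interaction, 0 subunits were called under every alternative. Of the single-gene values under the alternatives, 2597 kept their direction and side of the threshold, 83 lost the call, 4 gained it and 81 changed sign, none of the last being called in the main analysis. The cause was not tested.

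Replicate numbers were not shown to pair animals: over 22 same-numbered pairs the correlation of deviations ran from -0.18 to 0.21 (median 0.017), with 3 above 0.1. With a replicate block 8 subunits were called higher and 1 lower in CLP against Sham, against 2393 and 2339 of 14794 genes. The counts were 6 and 0 in CLP+VNS against Sham+VNS, against 1135 and 975 of 14794 genes. Gbp5 in CLP+VNS against Sham+VNS (-0.34, edgeR adjusted p = 0.238) and Psmb10 in CLP against Sham (-0.24, adjusted p = 0.116) lost their calls. Log2 fold changes that took the other sign under the block were, in CLP+VNS against Sham+VNS Psme2 0.11, Psmb8 0.040, Psmb10 0.027, in CLP+VNS against CLP Psme1 0.016, Psme2 0.0061, Psme4 -0.0025, Pomp 0.011, in Sham+VNS against Sham Psmb7 0.00039, in the interaction Psmb5 -0.030, Psmb6 -0.029.

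The sign also changed for Psmb7 in Sham+VNS against Sham with DESeq2 size factors in edgeR (0.0014), with no filter on low counts (0.00064), with only the 2 groups in the fit (8.15e-05), with DESeq2 (0.0012), with 2 adipose-rich libraries left out (0.030), and for Psmd4 in the interaction with total count alone (0.013), Nfe2l1 in the interaction with total count alone (0.011), Nfe2l1 in the interaction with 2 adipose-rich libraries left out (0.013). When 1 library was left out, ranges that crossed 0 were, in CLP against Sham Psmb5 -0.038 to 0.0078, in CLP+VNS against Sham+VNS Psmb5 -0.034 to 0.010, Psme2 -0.12 to 0.015, Psmb10 -0.087 to 0.012, in CLP+VNS against CLP Psmb5 -0.039 to 0.0092, Psmd4 -0.038 to 0.0067, Psme3 -0.048 to 0.0027, Psme4 -0.035 to 0.055, Psmb10 -0.020 to 0.058, in Sham+VNS against Sham Psmb5 -0.039 to 0.0050, Psmb7 -0.028 to 0.028, Psmd4 -0.047 to 0.0076, Psme4 -0.037 to 0.073, Nfe2l2 -0.074 to 0.032, Usp14 -0.00077 to 0.072, in the interaction Psmb5 -0.017 to 0.029, Psmb6 -0.013 to 0.065, Psmd4 -0.025 to 0.029, Psme3 -0.018 to 0.040, Psme4 -0.071 to 0.051, Nfe2l1 -0.050 to 0.026. Depth limits Psma8 and Psmb11, which had too few counts to test.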

Other observations

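Directly next to Psma6 in the reference gene order are Prorp before it and Nfkbia, the feedback inhibitor of NF-kappaB, after it. Both were looked up after the values of Psma6 were seen. Nfkbia gave a log2 fold change of 1.05 ± 0.15 in CLP against Sham (edgeR adjusted p = 2.07e-05) and 1.66 ± 0.15 in CLP+VNS against Sham+VNS (adjusted p = 3.99e-07). Of the genes within 3 places of Psma6, the other tested ones gave 0.28 ± 0.063 for Fam177a1, 0.27 ± 0.074 for Ppp2r3c and -0.017 ± 0.073 for Prorp in CLP against Sham, of which Fam177a1 and Ppp2r3c were called. Under stimulation these 3 gave 0.14, 0.16 and 0.15 and were not called. No relation between the neighbours was tested.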
